A study of Homo sapiens with 18 samples.

Results

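PLK4, the kinase that starts the duplication of centrioles, is described here together with the other genes whose symbols follow the naming patterns of DNA replication and mitosis: MCM helicase subunits, CDC genes, cyclins of the A, B, D and E classes, cyclin-dependent kinases (CDK) and their inhibitors (CDKN), centromere proteins (CENP), kinesins (KIF), Aurora and Polo-like kinases, E2F factors and origin recognition subunits (ORC). The rule for members is a pattern of symbols and uses no measured value, and 140 of the 10975 genes in the deposited table of RPKM (read density scaled to transcript length and library size) matched. Because a name is not a role, the members were divided into 86 genes with a core role in replication, the cell cycle or mitosis and 54 others. The others are called namesakes here, such as CDC42 and its effectors, kinesins of organelle transport and CDKs of transcription. The division is coarse, and some namesakes, CDK7, CDC34 and CENPV among them, may also act in the cell cycle or mitosis.

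The cell cycle copies the genome once and then divides it. Origins are licensed when ORC, CDC6 and other factors load the ring of MCM2 to MCM7, which later unwinds DNA, and cyclins with their CDKs drive each step, with D-type cyclins and CDK4 or CDK6 acting on the RB protein to free E2F factors. In mitosis, the spindle is built by kinesins and centrosomes, kinetochores hold the chromosomes, and the anaphase-promoting complex marks cyclin B and other proteins for destruction. Pluripotent stem cells are known for fast division with short gap phases.

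H1, an established line of human embryonic stem cells, was grown in E8 medium. A first wild-type (WT) series was sequenced before treatment (0 h) and 12, 24 and 48 h into treatment with Wnt3a at 1 nM, a ligand of the WNT/β-catenin pathway. The study's supplement states that the 0 h cells received Wnt storage buffer for 48 h. A second WT series (WT Rep. 2) and the SP5 mutant lines dZF1 and dZF2 were treated for the same times. SP5 is a zinc finger transcription factor induced by WNT, and each mutant line is a single clone in which CRISPR-Cas9 removed the sequence for its zinc fingers from both alleles. There was 1 library for each series and time. Within the first WT series, the only one with values for all members, the times have no replicates, so differences are described by size, with no SD and no test. The RPKM tables carry no read counts, so the depth is unknown. SP5 ChIP-Seq peaks were deposited as 2 lists, of which the labels give 1 to cells without Wnt3a and the other to cells treated for 24 h. Their headers, however, name the same ChIP library, with a name that carries H9 (another human embryonic stem cell line), and differ in the control: buffer-treated for the list labelled as untreated, Wnt3a-treated for the other. The lists are called by their control here.

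All 10 markers of pluripotent cells were listed, with a summed RPKM of 3036.9 at 0 h and 2186.5 at 48 h. The largest part of this sum was LIN28A (1014.1 and 784.7), while NANOG (3.3 and 3.4) and SALL4 (119.2 and 132.1) were not lower at 48 h. The 9 markers of mesendoderm and definitive endoderm went from a sum of 6.5 to 1144.9, with EOMES, MIXL1, SOX17 and GATA6 at 0 RPKM in the 0 h library. Of the fibroblast markers 3 of 6 had a row, with a sum of 213.7 at 0 h and 122.1 at 48 h that was mostly THY1, while COL3A1, DCN and LUM had none. The neural markers PAX6, SOX1 and ZIC1 had no row, and the 2 listed (NES and OTX2) summed to 200.4 and 326.8. Marker levels thus differed between the libraries, and their part in the members' changes was not tested. In bulk RNA fewer cells of a type and less RNA per cell cannot be told apart.

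The members were expressed at every time and, as a group, changed little. None was listed at 0, and the lowest value of any member in any library was 2.4 RPKM. Few genes were at 0 at all (45, 35, 31 and 34 of the 10975 at the 4 times), and the table holds no gene with a highest RPKM under 4. Their summed RPKM was 4776.2, 4777.5, 4869.7 and 4736.5 from 0 h to 48 h, and their median log2 change (of RPKM plus a pseudocount of 1, against 0 h) was 0.02 at 48 h, beside -0.0027 over all listed genes. Counted on this log2 scale, 2 members were at least 2-fold higher at 48 h, CDC42EP1 and CDK6, beside 4.86% of all genes. At the same time 3 were at least 2-fold lower, KIF5A, KIF21B and CDK14, beside 2.95% of all genes. At 12 h none was 2-fold higher (1.22% of all genes) and 1, CDC42EP2, was 2-fold lower (0.720% of all genes). At 24 h 1 was 2-fold higher, CDC42EP1 (2.62% of all genes), and none was 2-fold lower (1.35% of all genes). Among the 86 core genes CDK6 was the only one past 2-fold on this scale at any of the 3 times. In RPKM without the pseudocount, the core gene CDKN2D was also past 2-fold, at 0.453 times its 0 h value at 12 h. By the same plain ratio CDC42EP2 stood at 0.483 at 24 h and CENPBD1 at 2.15 at 48 h.

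For smaller changes the members were near the table as a whole at 12 h and somewhat steadier later. Within 0.5 on the log2 scale at 12, 24 and 48 h were 92.1%, 90.7% and 80.7% of members, beside 89.4%, 84.2% and 75.4% of all genes. On the log2 scale 15 members were at least 0.5 higher at 48 h (12.8% of all genes) and 12 at least 0.5 lower (11.8% of all genes). The same counts were 3 higher (5.28% of all genes) and 8 lower (5.27% of all genes) at 12 h, and 8 higher (8.71% of all genes) and 5 lower (7.04% of all genes) at 24 h. The share that stayed within 0.5 of the 0 h value at 12, 24 and 48 h was 74.3% of members (104 genes) and 77.9% of core members (67 genes), beside 66.9% of all genes. The median RPKM at 0 h was also higher, 22.95 for members and 24.05 for core members, beside 14.7 for all genes. The part of expression level in these shares was not tested. The median absolute log2 change at 48 h was 0.20 for members and 0.27 for all genes. RPKM was lower at each later time for 12 members (8.57%, beside 9.21% of all genes) and higher at each later time for 10 (7.14%, beside 8.15%), so ordered courses were not more frequent than in the table as a whole.

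**Figure D1:**
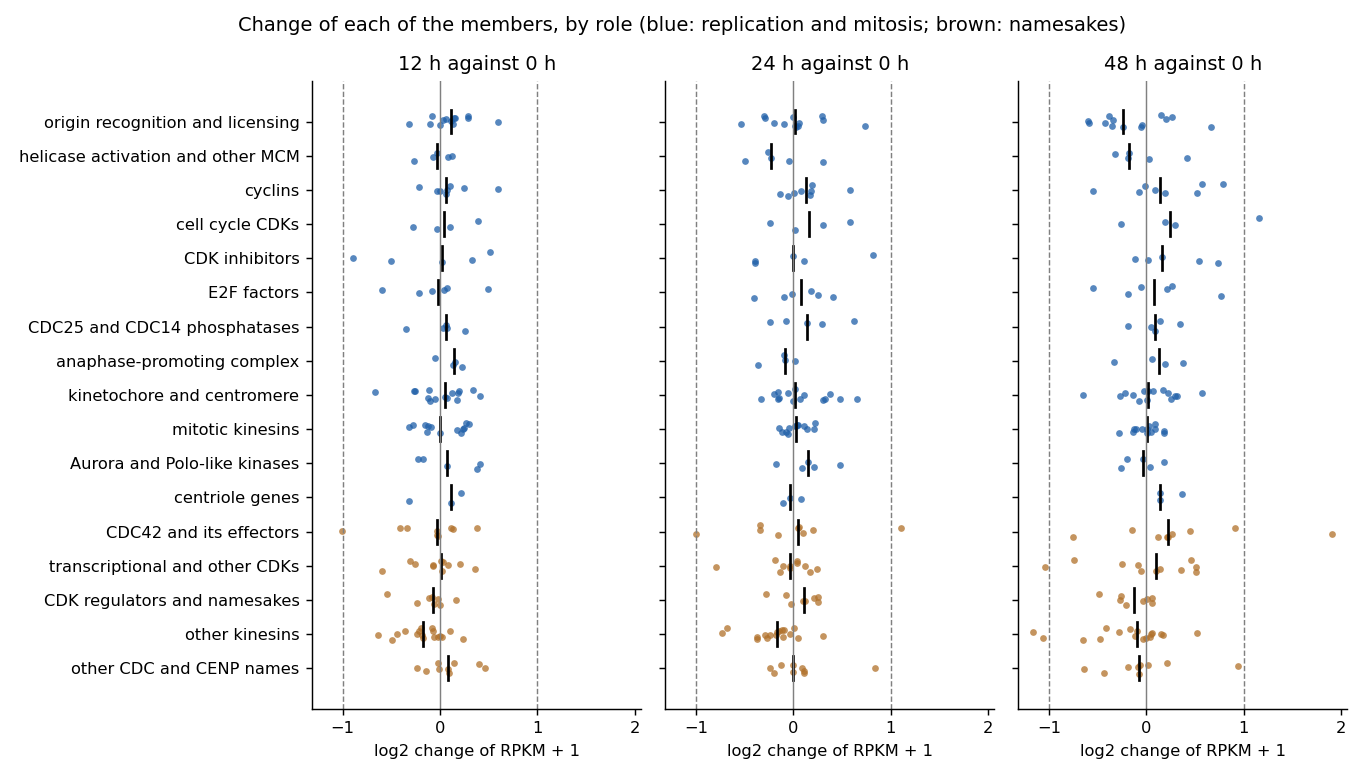
Change of each member against 0 h in the first WT series, on the log2 scale of RPKM plus 1, at 12, 24 and 48 h. Each point is a gene, black bars mark the median of a role, dashed lines mark 2-fold, and the points past 2-fold at 48 h are CDC42EP1 (1.91) and CDK6 (1.15) to the right and KIF5A (-1.16), KIF21B (-1.06) and CDK14 (-1.04) to the left.

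**Figure D2:**
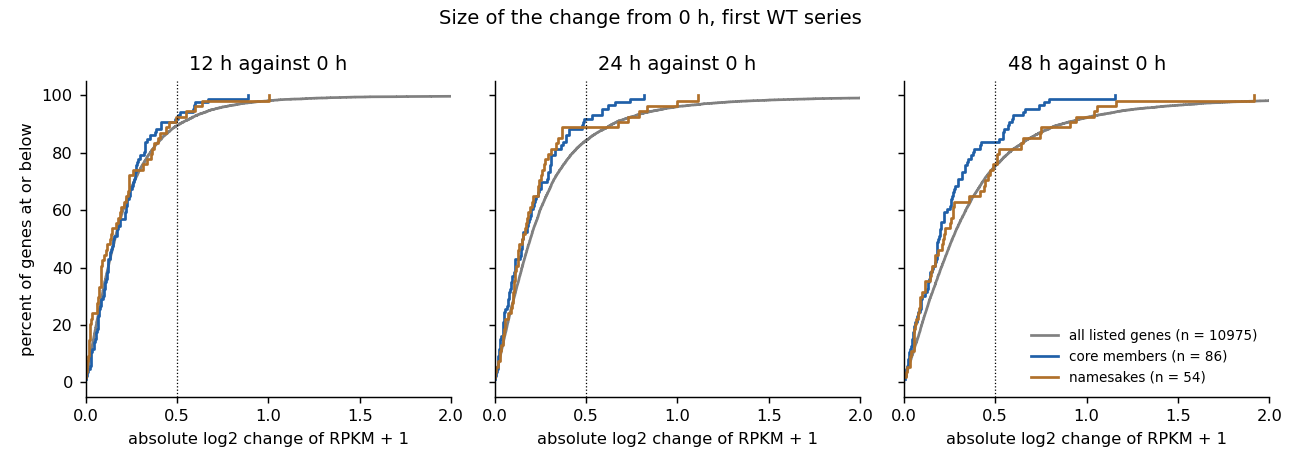
Cumulative share of genes (percent) by the absolute log2 change of RPKM plus 1 from 0 h, for all 10975 listed genes (grey), the 86 core members (blue) and the 54 namesakes (brown). At 48 h the dotted line at 0.5 is crossed at 75.4% for all genes, 83.7% for core members and 75.9% for namesakes, and the x axis ends at 2.

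Most subunits of the MCM ring, which is loaded when origins are licensed, had lower values at the later times. The summed RPKM of MCM2 to MCM7 was 616.8, 600.6, 536.6 and 483.2 at the 4 times, and its end was 78.3% of its start. At 48 h 5 of the 6 were lower, beside 50.1% of all genes, with a median log2 change of -0.38, and none had passed 2-fold. MCM3, with the highest RPKM of the origin genes at 0 h, had 151.9, 151.3, 122.9 and 100.1 RPKM at the 4 times, a log2 change of -0.60 at 48 h. MCM2 had 80.2, 74.5, 65.6 and 52.9 RPKM (-0.59 at 48 h). MCM5 had 93.4, 74.4, 64.2 and 69.5 RPKM and was lowest at 24 h (-0.53). MCM2, MCM3 and MCM7 were lower at each later time. MCM7 went from 117.8 to 111.5, 110.2 and 93.1 RPKM (-0.34 at 48 h), and MCM4 had 115.2, 128.2, 114.7 and 97.6 RPKM (-0.24). MCM6 was the exception, with 58.3, 60.7, 59 and 70 RPKM (0.26), so the 6 subunits did not move together.

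The upstream bases of MCM3 hold short motifs that were more frequent in promoters of core members than in those of all listed genes. The sequence is the 250 bases before the RefSeq start site, chr6:52284743-52284992 on the minus strand of GRCh38.p14, and capitals mark CCAAT (the CCAAT box) and GCGGGAA (letters found in many E2F sites) on either strand, where ATTGG and TTCCCGC are the reverse complements.
MCM3 promoter: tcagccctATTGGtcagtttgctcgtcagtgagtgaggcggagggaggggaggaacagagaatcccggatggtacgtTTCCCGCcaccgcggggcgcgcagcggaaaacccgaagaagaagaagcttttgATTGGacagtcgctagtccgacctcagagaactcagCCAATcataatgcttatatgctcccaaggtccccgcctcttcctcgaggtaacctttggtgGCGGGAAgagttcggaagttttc
In this stretch CCAAT occurred 3 times and GCGGGAA 2 times. Of the RefSeq promoters of 300 bases (250 before and 50 after the start), 7879 belonged to listed genes and 119 to members by symbol. CCAAT was held by 37.4% of the promoters of listed genes, 66.2% of those of core members (47 of 71) and 27.1% of those of namesakes (13 of 48). Among replication fork genes outside the name patterns CCAAT was held by 45.2% (14 of 31). GCGGGAA was held by 869 of the 7879 promoters of listed genes, 19.7% of core members and 27.3% of the origin genes (3 of 11), and among the replication fork genes outside the name patterns by 41.9% (13 of 31). It was not particular to replication genes, with 3 of 4 for the anaphase-promoting complex and 4 of 8 for centriole assembly outside the name patterns. The mitotic kinesins had 0 of 13.

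The loaders of the ring differed from one another. ORC1, a subunit of the origin recognition complex, had 22.8, 25.1, 23.7 and 17.3 RPKM (-0.38 at 48 h), whereas ORC2 had 15.8, 24.3, 27.1 and 25.6 RPKM (0.66 at 48 h) and was above its 0 h value at each time, including 0.59 at 12 h. CDC6, which helps ORC to load the ring, stayed near its start with 49.5, 54.9, 51.6 and 47.5 RPKM (-0.06). Of the genes that activate the helicase, CDC7, the kinase of the ring, had 37.9, 41.3, 31.6 and 33.4 RPKM (-0.18), MCM10 was lower at each later time (26.9 to 21.4 RPKM, -0.32), and CDC45, which travels with the ring, had 5.6, 4.5, 3.7 and 7.8 RPKM (0.42). The 35 replication fork genes outside the name patterns had a median log2 change of -0.02 at 48 h and 99.2% of their summed RPKM at 0 h. Their largest rise was that of TYMS, thymidylate synthase (52.3 to 83.5 RPKM, 0.66), and their largest fall that of PRIM1, the primase catalytic subunit (19.4 to 12.4 RPKM, -0.61).

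**Figure D3:**
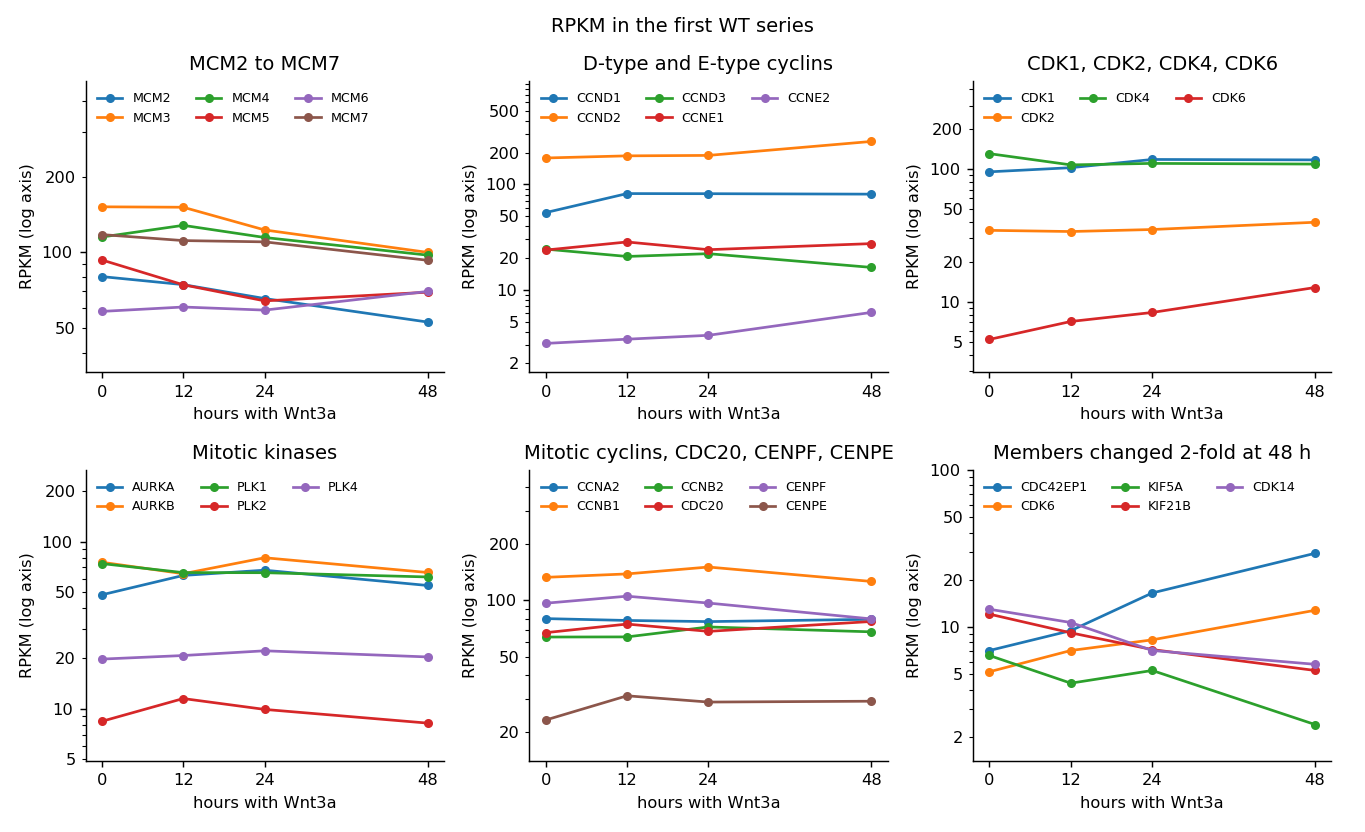
RPKM (log axis) against hours with Wnt3a in the first WT series, 1 library per point. Panels show MCM2 to MCM7, the D-type and E-type cyclins, CDK1, CDK2, CDK4 and CDK6, the mitotic kinases and further mitotic genes. The last panel shows the members changed 2-fold at 48 h on the scale of RPKM plus 1. MCM3 ends at 100.1 and MCM2 at 52.9 RPKM, CDK6 climbs from 5.2 to 12.8 RPKM, and PLK4 stays between 19.8 and 22.2 RPKM.

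Cyclins of the D class moved apart, and those of mitosis hardly moved. CCND2 was the member with the highest RPKM at 0 h and had 177.7, 186.2, 188 and 255 RPKM (0.52 at 48 h). CCND1, a known WNT target in many cells, had 53.9 RPKM at 0 h and 81.7, 81.5 and 80.7 RPKM later, so its whole difference was present by 12 h (0.59). CCND3 had 24.3, 20.7, 22 and 16.3 RPKM (-0.55 at 48 h). The ratio of CCND2 to CCND3 in RPKM was 7.31 at 0 h and 15.6 at 48 h. Of the E-type cyclins, which act at the entry to S phase, CCNE2 had 3.1, 3.4, 3.7 and 6.1 RPKM (0.79), and CCNE1 had 23.8, 28.4, 24 and 27.4 RPKM (0.20). CCNA2, CCNB1 and CCNB2, which run S phase and mitosis, had log2 changes at 48 h of -0.01, -0.07 and 0.09, and their levels at 0 h were 80.1, 132.8 and 63.9 RPKM.

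Among the kinases that bind these cyclins, CDK6 stood out. It had 5.2, 7.1, 8.3 and 12.8 RPKM in the first WT series, higher at each later time, with log2 changes of 0.39, 0.58 and 1.15. CDK4, which takes the same D-type cyclins, had 130.5, 107.4, 110.2 and 108.9 RPKM (-0.26 at 48 h), so its RPKM was 25.1 times that of CDK6 at 0 h and 8.51 times at 48 h. CDK1, the kinase of mitotic entry, had 95.2, 102.3, 118 and 117.1 RPKM (0.30), and CDK2 had 34.5, 33.8, 35 and 39.7 RPKM (0.20). Of the inhibitors, CDKN1A (p21) had 27.6, 27.9, 20.8 and 30.9 RPKM (0.16) and CDKN1C (p57) had 8.1, 5.4, 8.1 and 14.2 RPKM (0.74 at 48 h after -0.51 at 12 h). CDKN2D, an inhibitor of CDK4 and CDK6, had 5.3, 2.4, 3.8 and 5.4 RPKM, with its low point at 12 h (-0.89). CDKN3, a phosphatase that acts on CDKs, was the inhibitor with the highest RPKM at 0 h and had 34.7, 50.1, 61.8 and 50.9 RPKM (0.81 at 24 h).

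E2F factors gave no common direction. E2F1, an activator of S phase genes, had 22.2 RPKM at 0 h and 14.3, 16.5 and 14.9 RPKM later (-0.60 at 12 h and -0.55 at 48 h), and E2F8, a repressor, had 3.7, 5.6, 4.6 and 7 RPKM (0.77 at 48 h). E2F4, which had the highest RPKM of the class, was near its start throughout (42.4, 36.4, 41.9 and 40.7 RPKM). Among 10 partners of RB and E2F outside the name patterns, 7 were higher and 3 lower at 48 h (5364 and 5493 of the 10975 listed genes), from TFDP1 (0.20) to TFDP2 (-0.76), both subunits that pair with E2F. CDC25A, the phosphatase that activates CDK2, stayed between 42 and 46.6 RPKM.

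Mitotic motors and kinases hardly moved. Each of the 13 mitotic kinesins was within 0.5 of its 0 h value on the log2 scale at 12, 24 and 48 h, with log2 changes at 48 h from -0.28 (KIF23, of the central spindle) to 0.18 (KIF11, which pushes the spindle poles apart). The same held for all 5 Aurora and Polo-like kinases and all 4 genes of the anaphase-promoting complex, and for 66.9% of all listed genes. KIF22, with the highest RPKM of the mitotic kinesins, had 54.4, 49.9, 52.7 and 49.5 RPKM, and CDC20, the activator of the anaphase-promoting complex, had 67.4, 74.9, 68.5 and 77.3 RPKM. KIF4A and KIF4B are near-identical copies that can share reads, so their separate values are uncertain.

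Most promoters of the mitotic kinesins held the same short run of letters. TTTGAA, the letters of the cell cycle homology region (CHR) of mitotic genes, was held on either strand by 69.2% of their promoters (9 of 13, KIF4A and its copy KIF4B among them), by 0 of 11 promoters of origin genes, by 71.0% of the mitotic genes outside the name patterns (22 of 31) and by 9.24% of listed genes. Both CCAAT and TTTGAA were held by 8 of the 13 (61.5%), beside 315 of the 7879 promoters of listed genes and 7.14% of the other kinesins (1 of 14). KIF2A and KIF2C held neither. KIF11 is printed as the example with the highest RPKM at 0 h among those with both in the 250 bases before the start, chr10:92592880-92593129 on the plus strand of GRCh38.p14, and capitals mark CCAAT or TTTGAA on either strand (ATTGG and TTCAAA are the reverse complements).
KIF11 promoter: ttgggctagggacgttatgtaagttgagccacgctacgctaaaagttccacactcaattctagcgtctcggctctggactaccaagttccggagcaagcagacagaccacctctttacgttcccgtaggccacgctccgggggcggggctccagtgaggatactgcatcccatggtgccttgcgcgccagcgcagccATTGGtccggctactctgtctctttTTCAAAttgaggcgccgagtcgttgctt
The capitals near its end are 1 of each motif, with the CCAAT box further from the start site than the TTTGAA letters. A match of letters is a description of the sequence and does not show that a factor is bound.

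Kinetochore genes varied more than the mitotic kinesins but not more than the table as a whole. Within 0.5 of the 0 h value at 12, 24 and 48 h were 11 of the 15 (73.3%), beside 66.9% of all genes. Their median absolute log2 change at 48 h was 0.22, beside 0.27 for all genes. The median log2 change of the 15 members was 0.02 at 48 h, with CENPQ at 20.5, 19, 17.7 and 12.7 RPKM (-0.65) and CENPK at 16.9, 17.5, 21.5 and 25.6 RPKM (0.57), both subunits of the inner kinetochore. CENPF, which had the highest RPKM of this role, had 96.7, 105.4, 96.9 and 79.8 RPKM (-0.27). CENPA, the histone that marks centromeres, had 26.5, 30.4, 25.6 and 24.1 RPKM (-0.13), and CENPE, a motor of the kinetochore, had 23.1, 31.1, 28.8 and 29.1 RPKM (0.32). CENPC1 was low at 12 h alone, with 7.6, 4.4, 8 and 7.7 RPKM (-0.67 at 12 h). Outside the name patterns, 1 of 40 mitotic genes passed 2-fold at 48 h, while 4.86% of all genes were 2-fold higher and 2.95% lower. That gene, SPC24 of the outer kinetochore, had 15.3, 8.1, 14.2 and 4.2 RPKM (-1.65). The largest rise was that of MAD1L1, of the spindle checkpoint (6.3 to 10.7 RPKM, 0.68).

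PLK4 itself stayed level, with 19.8, 20.8, 22.2 and 20.4 RPKM and log2 changes of 0.07, 0.16 and 0.04. Its partners in the class included AURKA, a kinase of the spindle poles, with 48, 62.7, 67.4 and 54.6 RPKM (0.48 at 24 h), and AURKB, a kinase of the centromere and midzone, with 75.2, 64.2, 80 and 65.3 RPKM (-0.20 at 48 h). PLK1, which acts throughout mitosis, was lower at each later time, with 73.8, 65.2, 65.1 and 61.4 RPKM (-0.26). Over the 3 changes from 0 h, the core members nearest to PLK4 by Euclidean distance on the log2 scale were CDC25A (0.04), CENPT (0.06) and CCNB2 (0.08), all of them genes with hardly any change. The centriole genes CENPJ (16.4, 12.9, 15.2 and 18.2 RPKM) and CDK5RAP2 (4.5, 5.4, 4.8 and 6.1 RPKM) were slightly higher at 48 h, by 0.14 and 0.37. Of 8 centriole assembly genes outside the name patterns, STIL, which binds PLK4, had the largest rise (18.8 to 29.3 RPKM, 0.61) and CEP57 the largest fall (50 to 35.5 RPKM, -0.48).

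At 48 h 1 of the 54 namesakes was at least 2-fold higher and 3 were at least 2-fold lower, beside 4.86% and 2.95% of all genes. Of the 86 core members 1 was higher and 0 lower by this limit. At the limit of 0.5, 6 namesakes were higher and 7 lower, and 9 and 5 of the core members (12.8% and 11.8% of all genes). CDC42EP1, an effector of the small GTPase CDC42 that shapes the actin cytoskeleton, had 7.1, 9.5, 16.5 and 29.5 RPKM, with log2 changes of 0.37, 1.11 and 1.91. Its relative CDC42EP4 had 11, 10.7, 11.9 and 21.5 RPKM (0.91 at 48 h), so the difference appeared only in the last library. CDC42EP2 went the other way, with 27.1, 13, 13.1 and 15.7 RPKM (-1.01 at 12 h and -0.75 at 48 h), and CDC42 itself had 97.8, 107.6, 101.2 and 118.1 RPKM (0.27).

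The 2 largest falls at 48 h belonged to transport kinesins. KIF5A, a motor of neurons, had 6.6, 4.4, 5.3 and 2.4 RPKM (-1.16 at 48 h), and KIF21B had 12.1, 9.2, 7.2 and 5.3 RPKM, lower at each later time (-1.06). KIF17 had 5.6, 4.6, 4.4 and 3.2 RPKM (-0.65). KIF5B, the form of the same motor found in most tissues, was instead higher at each later time (32.2, 34.6, 40.1 and 46.7 RPKM, 0.52), and KIF1A, which had the highest RPKM of the transport kinesins at 0 h, had 38.8, 36.8, 35.8 and 28.8 RPKM (-0.42).

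Of the CDKs with other tasks, CDK14, a kinase of the WNT co-receptor LRP6, had 13, 10.7, 7.1 and 5.8 RPKM (-1.04 at 48 h), and CDK8, a kinase of the Mediator complex, had 14.4, 11.4, 15.8 and 8.2 RPKM (-0.74). CDK9, which releases paused RNA polymerase II and had the highest RPKM of this class, stayed between 31.8 and 36.9 RPKM. The highest namesake, CDK2AP1, had 154.8, 142.5, 179.5 and 161 RPKM. CDC37, a chaperone partner that brings kinases to HSP90, had 114.7, 97, 100.3 and 73.1 RPKM (-0.64). CENPBD1 had 4.1, 6, 8.1 and 8.8 RPKM (0.94), and the RefSeq table used here carries it as the pseudogene CENPBD1P.

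The mutant table held 4 of the 140 members, CCND1, CDK6, CDC42EP1 and CDC42EP2. It lists 497 genes that the study chose as responsive to Wnt3a on the first WT series, so their presence there is not independent of the changes above. In it, the highest RPKM of a gene in WT Rep. 2 is set to 1, and every value of WT Rep. 2 and the clones is relative to it. Differences are log2 ratios after a pseudocount of 0.05 was added, and with 1 library per clone and time the 2 clones are the only measure of spread.

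CDK6 was lower in both clones at 0, 12 and 24 h. WT Rep. 2 had 0.75, 1, 0.90 and 0.61 at the 4 times, dZF1 had 0.50, 0.44, 0.51 and 0.60, and dZF2 had 0.49, 0.53, 0.46 and 0.66. The log2 ratios of dZF1 and dZF2 to WT Rep. 2 were -0.54 and -0.57 at 0 h, -1.10 and -0.86 at 12 h, and -0.76 and -0.90 at 24 h, so both clones lay below WT Rep. 2 at these times. Both clones were at least 0.5 lower for 13.5% of the genes in the table at 0 h, 14.9% at 12 h and 9.86% at 24 h. By 48 h both clones were near WT Rep. 2, with ratios of -0.02 and 0.11. The 2 WT series did not share a course for CDK6: between 0 and 48 h the log2 change, as a fraction of the maximum, was 1.20 in the first series and -0.28 in WT Rep. 2. Over all 497 genes the sign of the 48 h change was the same in both WT series for 88.9% (442 genes), and CDK6 was not among them. The earlier changes were shared less often, with the same sign for 54.3% (270 genes) at 12 h and 66.0% (328 genes) at 24 h.

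CDC42EP1 was higher in both clones at 48 h. WT Rep. 2 had 0.51, 0.13, 0.57 and 1, dZF1 had 0.41, 0.29, 0.62 and 1.93, and dZF2 had 0.46, 0.92, 1.52 and 2.45. At 48 h the log2 ratios to WT Rep. 2 were 0.92 for dZF1 and 1.25 for dZF2, and 18.7% of the genes in the table had both clones at least 0.5 higher. At 12 h they were 0.92 and 2.43 (12.1% of the genes), where WT Rep. 2 was at its low of 0.13, a low that the first WT series did not have. At 24 h only dZF2 was apart from WT Rep. 2 (1.34, beside 0.11 for dZF1). Between 0 and 48 h CDC42EP1 was higher in each of the series, with log2 changes of 1.85 (first WT series), 0.91 (WT Rep. 2), 2.11 (dZF1) and 2.29 (dZF2).

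CCND1 showed no difference of 0.5 in both clones at any time. WT Rep. 2 was nearly flat, with 0.91, 1, 1 and 0.98, and its log2 change at 48 h was 0.10, beside 0.55 in the first WT series on the same scale of fractions. The clones had 0.96, 1.14, 0.93 and 0.69 (dZF1) and 0.94, 1.31, 1.27 and 0.96 (dZF2). At 48 h the log2 ratios were -0.48 and -0.03, a gap between clones larger than their mean of -0.25.

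CDC42EP2 was higher in both clones at 0 and 12 h, with log2 ratios of 0.69 and 0.75 at 0 h (8.85% of the genes in the table) and 0.57 and 0.79 at 12 h. WT Rep. 2 had 0.77, 0.74, 0.89 and 1, dZF1 had 1.27, 1.12, 1.05 and 1, and dZF2 had 1.33, 1.32, 1.63 and 1.13. These differences were not seen at 48 h, with ratios of 0.00 and 0.17. As for CDK6, the WT series went in opposite directions, with a change between 0 and 48 h of -0.74 in the first and 0.36 in WT Rep. 2.

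**Figure D4:**
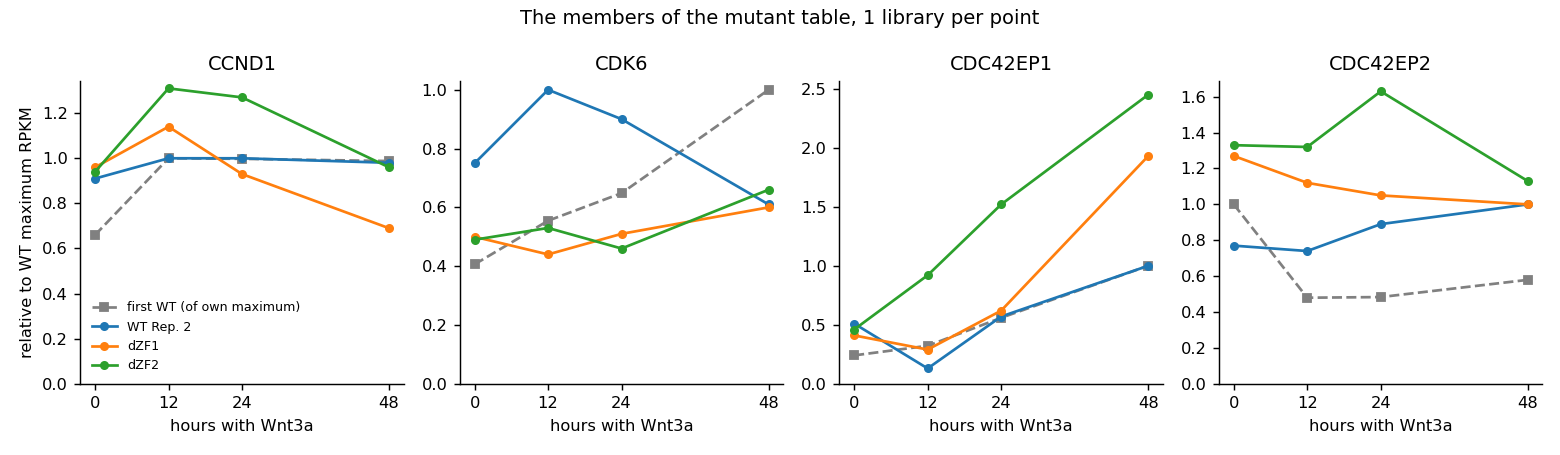
Values of CCND1, CDK6, CDC42EP1 and CDC42EP2 against hours with Wnt3a, 1 library per point. WT Rep. 2 (blue), dZF1 (orange) and dZF2 (green) are relative to the highest RPKM in WT Rep. 2, and the first WT series (grey, dashed) is scaled to its own highest RPKM and is not comparable in level. CDK6 lies lower in both clones than in WT Rep. 2 up to 24 h, and CDC42EP1 ends at 1.93 and 2.45 in the clones.

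SP5 peaks lay near the start sites of a few members, and PLK4 was one of them. With the Wnt3a-treated control, 6 of the 139 members with an annotated start site had a summit within 2000 bases (CDC37, CDK5RAP2, CDK9, KIF2A, KIF7 and PLK4), or 4.32%, beside 1.60% of 10651 listed genes. With the buffer-treated control there were 7 (CCND2, CDK5RAP2, CDK9, KIF2A, KIF7, MCM8 and PLK4), or 5.04%, beside 1.30%. Since both lists start from 1 ChIP library of 18641194 tags, they are not 2 measurements of binding. None of these peaks had a listed false discovery rate (FDR) of 5% or less, which 24 listed genes had in the first list. The lowest among the 6 was that of KIF7 (10.1%), and CCND3 had a peak with 6.35% just outside the window, 2790 bases from a start site.

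The PLK4 peak had 69 tags, the most of the members with a peak, and an enrichment over the Wnt3a-treated control of 6.39-fold, with an FDR of 28.0% (47.3% with the buffer-treated control). It covers chr4:128801701-128802911 of GRCh37, and its summit lies in an untranslated exon of a PLK4 transcript, 22 bases after the nearest of the annotated start sites and 361 bases after the outermost one. The 300 bases before the outermost start, which lie wholly in the peak at chr4:128801748-128802047 on the plus strand, are printed with capitals for GGGCGG (the GC box bound by SP factors) and GGGAGG on either strand (reverse complements CCGCCC and CCTCCC).
PLK4 promoter: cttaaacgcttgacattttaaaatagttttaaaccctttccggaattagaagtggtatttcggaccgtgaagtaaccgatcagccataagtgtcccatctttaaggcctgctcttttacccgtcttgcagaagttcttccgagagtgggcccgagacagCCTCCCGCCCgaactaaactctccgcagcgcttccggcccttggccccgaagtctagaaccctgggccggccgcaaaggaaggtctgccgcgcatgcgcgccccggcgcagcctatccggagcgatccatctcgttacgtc
The run of capitals holds 1 match of each, CCTCCC and CCGCCC, which overlap. Of RefSeq promoters of the same length 72.3% held GGGCGG and 59.1% held GGGAGG. Within 100 bases of the PLK4 summit there were 4 matches to GGGCGG and 2 to GGGAGG, and such windows held GGGCGG in 42.1% of 539 peaks and GGGAGG in 50.8%.

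The other peaks near members had fewer tags, although in the list with the Wnt3a-treated control KIF7, CDK9, KIF2A and CDC37 had a lower FDR than PLK4 (10.1%, 17.6%, 26.4% and 26.7%). KIF2A, a kinesin that takes microtubules apart at spindle poles, had 26 tags, with the summit 61 bases before a start site. CDK9 had 38 tags and its summit 431 bases after a start site, in an intron. KIF7, a kinesin of Hedgehog signaling in cilia, had 28 tags with its summit 196 bases before the start of a shorter transcript and 7423 bases after the outermost start. CDK5RAP2, a centrosome protein, had 22 tags at a shorter transcript too, 45852 bases inside the gene, and the window around its summit held neither motif. CDC37 had 51 tags, 167 bases before its start site in an intron of an overlapping PDE4A transcript. The windows of 201 bases at the summits of CDC37, CDK9 and KIF7 are shown for comparison with PLK4, on the plus strand of GRCh37 at chr19:10530864-10531064, chr9:130548684-130548884 and chr15:90198794-90198994, with the same capitals.
CDC37 summit: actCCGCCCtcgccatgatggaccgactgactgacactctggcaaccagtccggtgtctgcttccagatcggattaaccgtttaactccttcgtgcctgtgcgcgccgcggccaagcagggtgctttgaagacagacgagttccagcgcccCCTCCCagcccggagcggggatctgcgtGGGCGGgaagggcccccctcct
CDK9 summit: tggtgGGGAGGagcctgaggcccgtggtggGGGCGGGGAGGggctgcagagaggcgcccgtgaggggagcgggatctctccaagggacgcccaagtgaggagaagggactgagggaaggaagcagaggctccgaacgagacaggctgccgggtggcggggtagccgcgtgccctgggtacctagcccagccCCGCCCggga
KIF7 summit: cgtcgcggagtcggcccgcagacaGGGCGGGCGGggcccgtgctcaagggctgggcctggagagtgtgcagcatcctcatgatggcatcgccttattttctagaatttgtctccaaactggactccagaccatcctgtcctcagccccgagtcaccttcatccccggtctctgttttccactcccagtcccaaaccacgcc
Each of the 3 windows held 2 matches to GGGCGG, in KIF7 as 2 overlapping copies, and GGGAGG occurred 1 time in CDC37, 2 times in CDK9 and 0 times in KIF7.

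Members with a peak did not share a change of RPKM. At 48 h the log2 changes were 0.04 for PLK4, -0.05 for KIF2A, 0.14 for CDK9, -0.17 for KIF7, 0.37 for CDK5RAP2, 0.03 for MCM8, 0.52 for CCND2 and -0.64 for CDC37. At 12 h KIF7 had its lowest value, with 7.1, 4.2, 6.3 and 6.2 RPKM at the 4 times (-0.64 at 12 h), while PLK4 and KIF2A (38.5, 38.4, 34.6 and 37.2 RPKM) kept close to 0 h. MCM8, a helicase of repair, stayed between 14.6 and 15.7 RPKM. None of these 8 genes is in the mutant table, so their values in dZF1 and dZF2 were not analysed here.

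**Figure D5:**
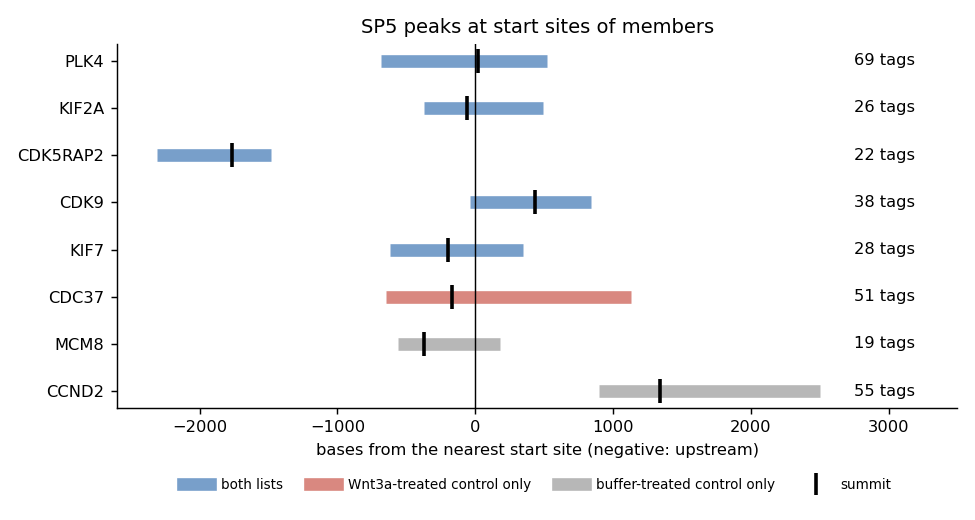
SP5 peaks with a summit within 2000 bases of a start site of a member, drawn as bars in bases from the nearest start site (negative is upstream), with a black tick at the summit and the tag count at the right. Blue peaks are in both lists, red in the list with the Wnt3a-treated control only and grey in the list with the buffer-treated control only. The summits of PLK4 and KIF2A lie 22 and -61 bases from the start.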

How the data were processed

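RNA-Seq was measured in 16 H1 libraries (4 series at 4 times) and SP5 ChIP-Seq in 2 samples, grouped by the titles in the labels. RNA was depleted of ribosomal RNA and made into directional libraries. The authors mapped reads to hg19 with TopHat and ran Cuffdiff, and the deposited RPKM of the first WT series cover 10975 genes, rounded to 1 decimal, none with a highest RPKM under 4. For the mutant table the authors divided the second WT series by the maximum of each gene, which gives a fraction. The authors divided both clones by that same maximum, which gives a ratio that can exceed 1. Read totals are not given in the sources used here, so the depth of the RNA libraries is unknown. For the peaks the authors deposited, from MACS 1.4.2 (per the labels and headers), tag counts, a score (from the p-value on a log10 scale), the fold over control and an FDR in percent. Further deposited tables, percent-of-maximum values and the comparison table of the authors (fold changes and p-values), were not used.

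Changes were log2 ratios to 0 h with a pseudocount of 1 RPKM, or 0.05 for fractions and ratios, with 2-fold and 0.5 (log2) as limits and no test. Start sites came from GENCODE 44 on GRCh37, matched for 139 members (138 by current and 1 by older symbol) and 10651 listed genes. Promoters came from RefSeq (GRCh38.p14). Python 3.11.15, numpy 2.4.6, pandas 2.3.3 and matplotlib 3.10.9 were used. The change measure was run on simulated data with genes raised 3-fold, which does not test smaller changes or genes of low RPKM. The members, roles and lists were chosen with earlier results of these data known, and the promoter motifs after seeing the data. Named genes were PLK4, the 8 largest rises and falls at 48 h and 3 at 12 h, members in the mutant table or with a peak, the highest RPKM of each role, the 3 nearest to PLK4, fixed textbook members, and the largest rise and fall of each outside list. Others (KIF23, KIF11, KIF5B, MCM3 to MCM6, MCM10, ORC2, CDKN1C and CENPK among them) were named after their values were seen. The alternatives were other pseudocounts, thresholds, scalings and baselines, core roles alone, each clone left out, and other distances, start sites and peak lists.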

Additional observations from a re-analysis of the deposited data

How the results depend on the processing

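Of 70 alternatives 52 left the value within the limit set for it (1.5 times a count, 0.05 for a median on the log2 scale, the SD of the 2 clones for a ratio), 18 moved it and 0 reversed a ratio of at least 0.5. Leaving out a clone could not pass its limit, because the mean of 2 values then always shifts by less than their SD. Only CDC42EP1, with a mean log2 ratio of 1.08, was large enough to be counted as reversed. Changes of sign in smaller ratios, as for CDC42EP2 and CDK6 below, were not counted. The counts of members changed 2-fold were small and moved most. At 12 h the count was 1, and it became 2 with a pseudocount of 0.1, 0 with a pseudocount of 5, 0 after rescaling every library to a median log2 ratio of 0, 0 for core roles alone and 8 at a 1.5-fold threshold. At 24 h the count of 1 became 2, 0, 12, 0 and 0 with the pseudocounts of 0.1 and 5, the 1.5-fold threshold, core roles alone and 12 h as the baseline. At 48 h the count of 5 became 1 with a pseudocount of 5, 18 at 1.5-fold, 1 for core roles and 2 with 12 h as the baseline, where no member was 2-fold lower. The shares of all listed genes with other pseudocounts, thresholds, scalings or baselines were not computed, so these counts cannot be set against the table. The median change at 12 h went from -0.0017 to 0.0587 for core roles alone. Of members, 104 were within 0.5 at every time, and this was between 102 and 121 under 6 alternatives chosen after seeing the data, leaving out each time among them. With 12 h as the baseline, also chosen later, MCM2 to MCM7 stood at 80.5% at 48 h.

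Divided by its own 0 h library, the mean log2 ratio of the clones at 48 h went from 0.08 to -0.63 for CDC42EP2 and from 0.04 to 0.60 for CDK6. With either clone left out it ranged from -0.48 to -0.03 for CCND1, 0.92 to 1.25 for CDC42EP1, 0.00 to 0.17 for CDC42EP2 and -0.02 to 0.11 for CDK6. The count of 6 members with a peak (170 listed genes) fell to 0 at an FDR of 5% or less (24 listed genes). It was 4 to 7 under the other alternatives, beside 113 to 193 listed genes. No paired analysis was possible because the reported values come from no test. Rounding to 1 decimal makes changes of genes under 5 RPKM coarse.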
